A study of Rattus norvegicus with 12 samples.

Results

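Wnt5a, a secreted Wnt ligand, was followed together with the ligands, receptors and effectors of the noncanonical Wnt pathway in cultured rat heart muscle cells. The set has 10 genes, chosen by name: the ligands Wnt5a, Wnt5b and Wnt11, the receptors Ror1, Ror2, Ryk, Fzd2 and Fzd7, the membrane protein Vangl2 and the cytoplasmic protein Daam1. Of these 10, 9 had values among the 17312 gene symbols, and Fzd7 is not analysed here. The filter on low values was passed by 7 of them, among 10518 genes in all, and Wnt5b and Wnt11 fell below it.

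The cells are labelled as cardiomyocytes of the Wistar rat strain, and per the series they are ventricular cells of neonatal rats. The 12 RNA sequencing libraries form 4 groups of 3: control siRNA unstretched (the unstretched control), control siRNA stretched (the stretched control), and cells with an siRNA against Wnt5a, unstretched and stretched. All 12 received an siRNA, so no group shows untreated cells, and the sources used here do not spell out the strength or the length of the stretch, the number of hearts pooled or the part of the Wnt5a transcript that the siRNA matches. The series title places the study in work on a link between Wnt5a and YAP in how heart cells sense mechanical load, and the design asks how stretch and loss of Wnt5a act alone and together.

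Noncanonical Wnt signalling works without β-catenin. Wnt5a and Wnt11 bind Frizzled proteins together with the co-receptors Ror1, Ror2 and Ryk, and the signal passes to the cytoskeleton or to the release of calcium. Vangl2 is a core protein of planar cell polarity, the arm that aligns cells in a sheet, and Daam1 is a formin that links Dishevelled to actin assembly. Wnt11 and Wnt5a are needed for the outflow tract and the early heart muscle of the embryo.

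Levels are FPKM, fragments scaled to transcript length and by a factor for each library, so they can be compared between genes. Changes are differences of mean log2(FPKM + 1) with their standard error (SE), tested with limma over all 10518 genes, and a gene is called where the adjusted p is under 0.05. Nothing in the labels says that the 3 libraries of a group came from separate cultures, so the spread that the p-values rest on may be technical. All 11 cardiomyocyte markers passed the filter, and their summed FPKM ran from 31610 to 34552 for unstretched and 31106 to 45632 for stretched control libraries, and from 22107 to 26244 (unstretched) and 21507 to 29856 (stretched) for those with the Wnt5a siRNA. Markers of other heart cells were also present: the summed FPKM of the 11 listed fibroblast genes was 3379 to 3891, 4751 to 8265, 5149 to 5429 and 8783 to 9389 in the same order, with Col1a2 listed at 0 in all 12 libraries, which can be a failed estimate since Col1a1 was abundant, so that the sum may leave out a main collagen. In bulk RNA, fewer cells of a type and less RNA per cell cannot be told apart. Stretched control library 3 stood apart from the other 2 of its group, with an SD of the log2 differences of 0.393 and 0.426, against 0.205 to 0.288 for the other pairs of replicates, and results that rest on it are also given without it.

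The members spanned a wide range of levels. Averaged over the 12 libraries, the receptor Ryk was the most abundant at 88.9 FPKM, followed by Fzd2 at 62.3. Daam1 was at 19.7, Ror2 at 16.8, Ror1 at 10.7 and Wnt5a at 7.49 FPKM. Vangl2, at 1.68 FPKM, lay near the filter, and Wnt5b at 0.431 and Wnt11 at 0.304 FPKM lay below it. In the unstretched control, however, Wnt5a (12.3, 10.4 and 11.6 FPKM) was above Ror1 (11.6, 10.3 and 7.74 FPKM) in each of the 3 libraries.

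**Figure D1:**
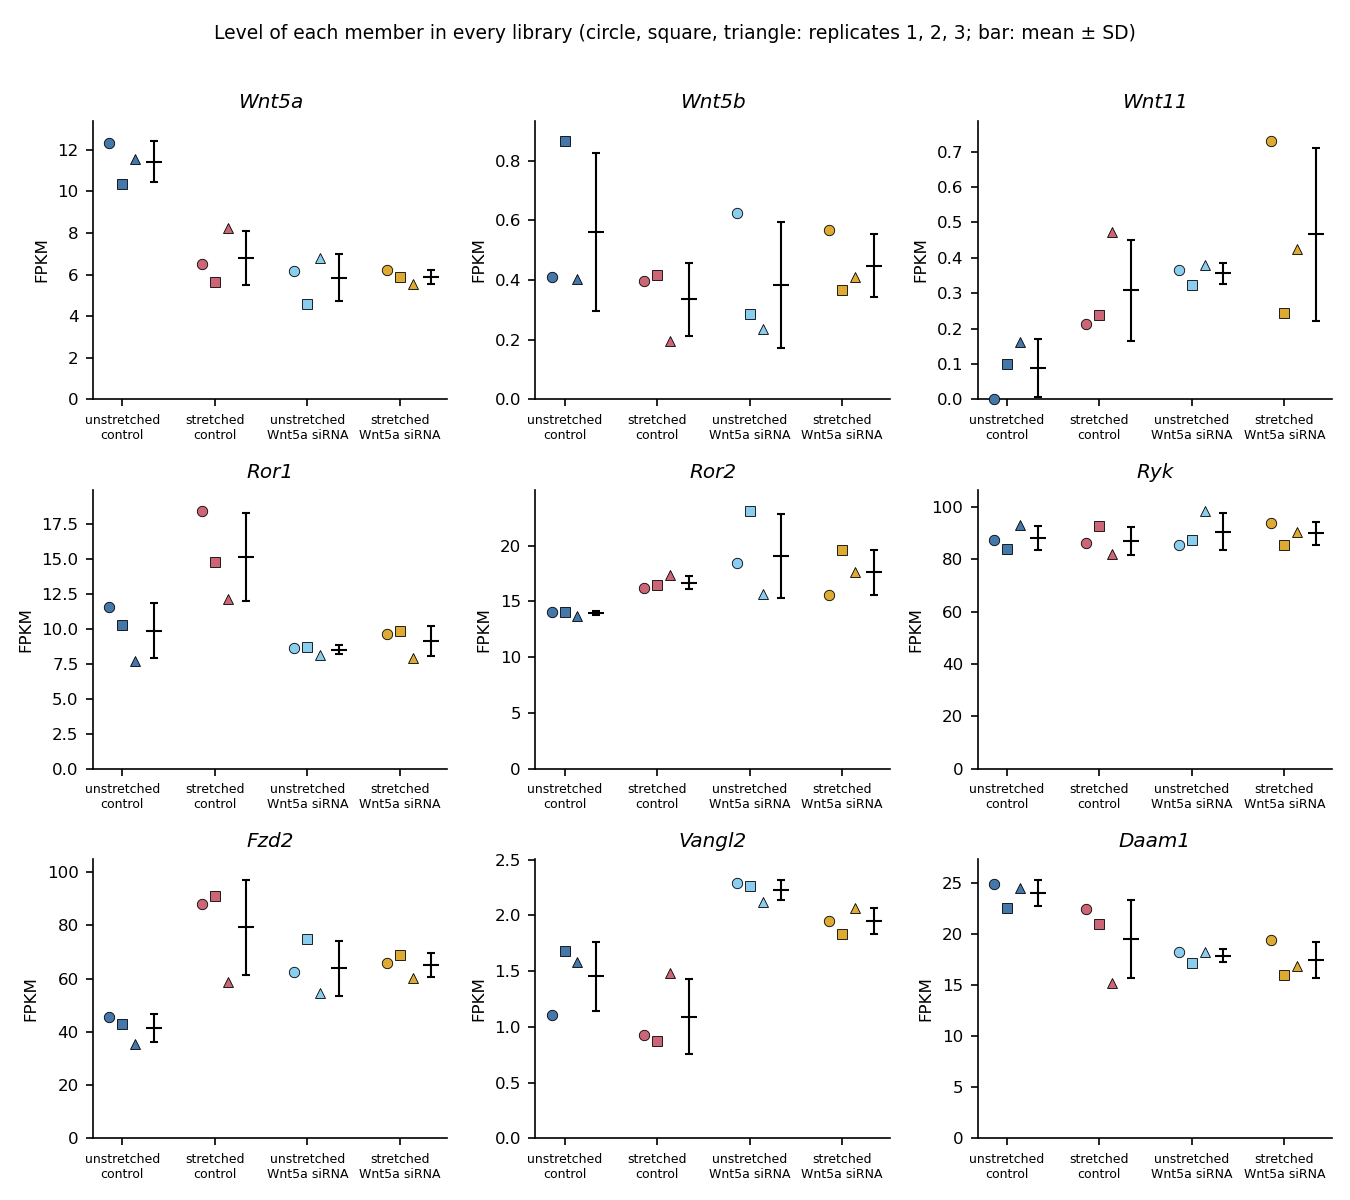
FPKM (vertical axis, from 0) of the 9 members with values in each of the 12 libraries, by group; circles, squares and triangles are replicates 1, 2 and 3, and bars are mean ± SD (n = 3). Wnt5a is highest in the unstretched control (10.4 to 12.3 FPKM), Ror1 and Fzd2 have their highest libraries in the stretched control, Vangl2 is highest in the Wnt5a siRNA groups, and Ryk stays between 81.9 and 98.6 FPKM.

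Among the ligands, Wnt5a itself was both the siRNA target and lower after stretch. The libraries of the unstretched control held 12.3, 10.4 and 11.6 FPKM and those of the unstretched Wnt5a siRNA 6.15, 4.60 and 6.81 FPKM. With stretch, the control held 6.52, 5.66 and 8.22 FPKM and the Wnt5a siRNA 6.22, 5.88 and 5.56 FPKM. All 9 libraries that were stretched or had the Wnt5a siRNA lay below the 3 of the unstretched control, and those 9 overlapped one another. The order of the group means was unstretched control, stretched control, stretched Wnt5a siRNA, unstretched Wnt5a siRNA, and of the neighbours in it only the first pair differed beyond its spread. Stretch with the control siRNA lowered Wnt5a by a log2 change of -0.68 ± 0.14 (adjusted p = 0.0014), and the siRNA without stretch by -0.87 ± 0.14 (adjusted p = 0.0014). In stretched cells the siRNA gave -0.17 ± 0.14 (95% interval -0.47 to 0.14, adjusted p = 0.3871). Between stretched and unstretched Wnt5a siRNA the difference was 0.020 ± 0.14 (adjusted p = 0.9475), and with library totals set equal it was -0.09.

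The effect of stretch on Wnt5a thus differed between the siRNAs, by an interaction of 0.70 ± 0.20 (adjusted p = 0.0244). This difference depended on single libraries. It lost its call without unstretched control 1 (adjusted p = 0.0514), unstretched control 3 (0.0559), stretched control 1 (0.0524), unstretched Wnt5a siRNA 2 (0.055) or stretched Wnt5a siRNA 1 (0.0535), and over all alternatives the adjusted p ran from 0.0048 to 0.0559. Exact 2-sided permutation tests on Wnt5a alone gave p = 0.1 for stretch with the control siRNA and for the siRNA without stretch, the smallest that 3 against 3 can give, and 0.3 and 0.9 for the other 2 comparisons.

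For orientation, the 250 bases upstream of the annotated Wnt5a start (RefSeq, build GRCr8, chr16:3703415-3703664, plus strand, inside the annotated gene because another start lies further upstream) are given in lower case, with the dinucleotide CG in capitals. It is shown because Wnt5a is the siRNA target. It holds 25 CG, against quartiles of 2, 5 and 15 over 33469 rat windows of the same length.
Wnt5a: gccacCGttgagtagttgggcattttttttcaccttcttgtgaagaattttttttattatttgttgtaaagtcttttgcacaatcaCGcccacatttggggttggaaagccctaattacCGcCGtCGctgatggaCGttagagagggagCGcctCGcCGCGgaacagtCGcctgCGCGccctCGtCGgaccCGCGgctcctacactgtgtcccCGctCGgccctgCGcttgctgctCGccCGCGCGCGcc

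Wnt5b, the close paralog of Wnt5a, was low in every library. Unstretched control libraries had 0.410, 0.865 and 0.404 FPKM, and stretched ones 0.397, 0.416 and 0.195 FPKM. With the Wnt5a siRNA the values were 0.624, 0.285 and 0.236 FPKM unstretched and 0.566, 0.365 and 0.410 FPKM stretched. The steps between these values fit whole fragments to within 0.024, with 3 in the lowest library and 14 in the highest as the smallest possible numbers. All 4 groups overlapped, and exact 2-sided permutation tests on Wnt5b gave p = 0.3 to 0.6 in the 4 comparisons.

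Wnt11, a ligand of the polarity arm, was lowest in the unstretched control. That group held 0, 0.0996 and 0.163 FPKM, against 0.213, 0.239 and 0.472 in the stretched control. The Wnt5a siRNA groups held 0.366, 0.322 and 0.380 FPKM unstretched and 0.730, 0.245 and 0.425 FPKM stretched. The values fit whole fragments to within 0.023, the smallest possible numbers being 0, 2 and 3 (unstretched) and 4, 5 and 9 (stretched) for the controls, and 8, 7 and 8 (unstretched) and 16, 5 and 9 (stretched) for the Wnt5a siRNA. None of the other 9 libraries overlapped the unstretched control. The exact 2-sided permutation p was 0.1, the smallest possible, for stretch with the control siRNA and for the siRNA without stretch. In a fit of all 13770 genes with any value, the log2 change of Wnt11 was 0.32 ± 0.11 for the siRNA without stretch (adjusted p = 0.0691) and 0.26 ± 0.11 for stretch with the control siRNA (adjusted p = 0.0849), neither called.

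Among the 18 Wnt genes with values, Wnt5a made up most of the message in every group. Wnt2 had no values, so the sums leave it out. Of the summed FPKM of 18 listed Wnt genes, Wnt5a was 76.7% ± 2.92 (SD, n = 3) in the unstretched control, 70.7% ± 7.64 in the stretched control, 53.5% ± 2.15 in the unstretched and 57.3% ± 4.34 in the stretched Wnt5a siRNA. The libraries of the Wnt5a siRNA groups ranged from 51.4% to 62.4% and those of the control siRNA groups from 62.2% to 80.0%. The other Wnt genes together were at 3.45 ± 0.336 FPKM in the unstretched control and 5.05 ± 0.613 in the unstretched Wnt5a siRNA, and at 2.77 ± 0.572 and 4.42 ± 0.806 FPKM with stretch. Without stretch the shares of the siRNA groups did not overlap, and with stretch they met, the lowest control library (62.2%) lying just below the highest Wnt5a siRNA library (62.4%).

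The receptors Ror1 and Ror2, tyrosine kinase-like proteins that bind Wnt5a, had different profiles. In control cells Ror1 was at 11.6, 10.3 and 7.74 FPKM unstretched and 18.5, 14.8 and 12.2 FPKM stretched. With the Wnt5a siRNA it was at 8.68, 8.76 and 8.17 FPKM unstretched and at 9.66, 9.85 and 7.92 FPKM stretched. All 3 stretched controls lay above the other 9 libraries, which overlapped one another. Ror1 rose with stretch in control cells (0.57 ± 0.15, adjusted p = 0.0075) and was lower with the Wnt5a siRNA in stretched cells (-0.66 ± 0.15, adjusted p = 0.0103). The siRNA without stretch gave -0.18 ± 0.15 (adjusted p = 0.4223) and stretch with the Wnt5a siRNA 0.084 ± 0.15 (adjusted p = 0.7554). The stretched control also stood above the unstretched Wnt5a siRNA, by 0.74 ± 0.15 (adjusted p = 0.0023), and the stretched Wnt5a siRNA differed from the unstretched control by -0.091 ± 0.15 (adjusted p = 0.6551).

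Whether the response of Ror1 to stretch differed between the siRNAs was less clear: the interaction was -0.48 ± 0.22 with an unadjusted p of 0.0445 and an adjusted p of 0.1219, and it was called without stretched control 3 (-0.62, adjusted p = 0.0303). The adjusted p over its alternatives ran from 0.0303 to 0.2744. Without stretched control 1 the siRNA effect in stretched cells was -0.52 (adjusted p = 0.0514, over alternatives 0.0012 to 0.0514). Without stretched control 3 the stretch effect was 0.71 (adjusted p = 0.0016) and the siRNA effect -0.80 (adjusted p = 0.0012).

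Ror2 was lowest in the unstretched control, at 14.1, 14.1 and 13.7 FPKM. The stretched control held 16.2, 16.4 and 17.4 FPKM, the unstretched Wnt5a siRNA 18.5, 23.1 and 15.7 FPKM, and the stretched Wnt5a siRNA 15.6, 19.6 and 17.6 FPKM. Every library with stretch or the Wnt5a siRNA exceeded the unstretched control, and these 9 overlapped. The siRNA without stretch raised Ror2 by 0.41 ± 0.12 (adjusted p = 0.022). Stretch with the control siRNA gave 0.24 ± 0.12, which was not called (adjusted p = 0.1018, 0.1816 without stretched control 3). Against the unstretched control, the stretched Wnt5a siRNA was higher by 0.31 ± 0.12 (adjusted p = 0.0468). No neighbours in the order of its means were called by limma, although the libraries of the stretched and unstretched control did not overlap. The interaction was -0.34 ± 0.17 (adjusted p = 0.156).

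The calls on Ror2 rested on few libraries. The siRNA effect without stretch was not called without unstretched control 2 (adjusted p = 0.0564) or 3 (0.0683), nor without unstretched Wnt5a siRNA 1 (0.0546) or 2 (0.0857), and its adjusted p ran from 0.007 to 0.0857 over alternatives. Without unstretched Wnt5a siRNA 2 it was 0.27, and without that library the stretch effect of Ror2 in control cells was called (0.24, adjusted p = 0.0427). The interaction was called without unstretched Wnt5a siRNA 3 (-0.47, adjusted p = 0.042, over alternatives 0.042 to 0.3343).

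The share of Ror1 in the pair, which was not tested, separated the siRNAs within the stretched and within the unstretched libraries. Across them it overlapped, with an unstretched control library at 36.1% and a stretched Wnt5a siRNA library at 38.2%. Ror1 was 41.2% ± 4.66 (SD, n = 3) of the summed FPKM of Ror1 and Ror2 in the unstretched control and 47.3% ± 6.02 in the stretched control. In the unstretched and stretched Wnt5a siRNA it was 31.2% ± 3.45 and 34.2% ± 3.69. With stretch, the lowest control library (41.2%) lay above the highest Wnt5a siRNA library (38.2%), and the unstretched groups did not overlap either (36.1% to 45.2% against 27.5% to 34.2%). The windows upstream of the 2 genes are shown because these sister receptors were called in different comparisons. Both are from RefSeq GRCr8, plus strand, and end at the base before the annotated gene: chr5:119859494-119859743 for Ror1 and chr17:12124499-12124748 for Ror2, again with CG in capitals.
Ror1: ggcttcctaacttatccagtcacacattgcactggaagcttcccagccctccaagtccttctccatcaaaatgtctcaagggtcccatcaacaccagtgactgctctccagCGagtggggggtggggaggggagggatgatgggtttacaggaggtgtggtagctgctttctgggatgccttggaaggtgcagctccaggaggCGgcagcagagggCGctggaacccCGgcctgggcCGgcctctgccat
Ror2: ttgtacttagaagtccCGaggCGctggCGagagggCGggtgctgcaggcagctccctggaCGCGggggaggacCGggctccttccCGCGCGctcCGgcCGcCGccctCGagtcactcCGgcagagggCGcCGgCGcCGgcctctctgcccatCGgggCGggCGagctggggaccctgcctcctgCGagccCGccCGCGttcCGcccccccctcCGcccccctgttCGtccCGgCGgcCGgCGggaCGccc
The Ror1 window holds 5 CG, the median of all rat windows, and 60% G and C bases, and the Ror2 window 34 CG and 78.4%.

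Ryk, a receptor with an inactive kinase domain that binds Wnts through a WIF domain, had the smallest changes of the 7 tested members in the 4 pairwise comparisons. Control cells held 87.4, 83.8 and 93.2 FPKM unstretched and 86.3, 92.7 and 81.9 FPKM stretched. Wnt5a siRNA cells held 85.3, 87.5 and 98.6 FPKM unstretched and 94.0, 85.3 and 90.5 FPKM stretched. All 4 groups overlapped, and none of the 5 tests was called, with changes from -0.020 to 0.050 and adjusted p from 0.6441 to 0.9677. The 95% interval for stretch with the control siRNA was -0.18 to 0.14. That result depends on the scale: with library totals set equal, Ryk was called lower with stretch in control cells (-0.25, adjusted p = 0.0165), where the median of all genes was -0.19.

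Fzd2, a Frizzled receptor for Wnt5a, had the largest change among the tested members with stretch in control cells. The unstretched control held 45.7, 42.8 and 35.5 FPKM and the stretched control 88.0, 90.9 and 58.8 FPKM. The Wnt5a siRNA groups held 62.4, 74.9 and 54.5 FPKM unstretched and 65.7, 69.0 and 60.1 FPKM stretched. The unstretched control lay below every other library, and stretched control 3 lay within the range of the Wnt5a siRNA groups while the other 2 stretched controls lay above it. The mean of the stretched control was 192% of that of the unstretched control, and the Wnt5a siRNA groups were at 155% and 157%.

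Stretch raised Fzd2 in control cells by 0.90 ± 0.16 (adjusted p = 4.7e-04, 1.10 without stretched control 3). The siRNA also raised it in unstretched cells, by 0.61 ± 0.16 (adjusted p = 0.0138), a call lost without unstretched control 3 (adjusted p = 0.0638) or unstretched Wnt5a siRNA 2 (0.0615), with 0.0013 to 0.0638 over alternatives. Stretch with the Wnt5a siRNA gave 0.032 ± 0.16 (95% interval -0.31 to 0.38, adjusted p = 0.9214). The interaction was -0.87 ± 0.23 (adjusted p = 0.0168) and was called in all 12 fits that left out a library (adjusted p 0.001 to 0.0465). Between the stretched groups the siRNA gave -0.26 ± 0.16 (adjusted p = 0.2394). Without stretched control 3 that difference was -0.46 and called (adjusted p = 0.0112, over alternatives 0.0112 to 0.5634).

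The rise of Fzd2 came with a lower level of Fzd1, which is no member of the set. Among the Frizzled genes with values, Fzd1 was the most abundant in unstretched control cells. Fzd7 had no values, so the shares and sums below leave it out. Fzd1 was at 127 ± 3.63 FPKM (SD, n = 3) in the unstretched and 75.5 ± 15.7 FPKM in the stretched control, a log2 change of -0.76 ± 0.12 (adjusted p = 2.4e-04). Of the summed FPKM of 9 listed Frizzled genes, Fzd2 was 20.0% ± 1.61 in the unstretched and 39.2% ± 1.34 in the stretched control, and Fzd1 61.5% ± 1.25 and 37.4% ± 1.15. The share of Fzd2 in the 3 stretched controls ran from 37.7% to 40.3%, with library 3 among them, although its summed Frizzled level (156 FPKM) was below those of the other 2, up to 230 FPKM. In the Wnt5a siRNA groups Fzd2 was 32.7% ± 4.15 unstretched and 34.2% ± 2.70 stretched. The group means of the summed Frizzled level were 207, 202, 195 and 190 FPKM in the unstretched control, stretched control, unstretched and stretched Wnt5a siRNA, and Fzd8 was listed at 0 throughout.

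**Figure D2:**
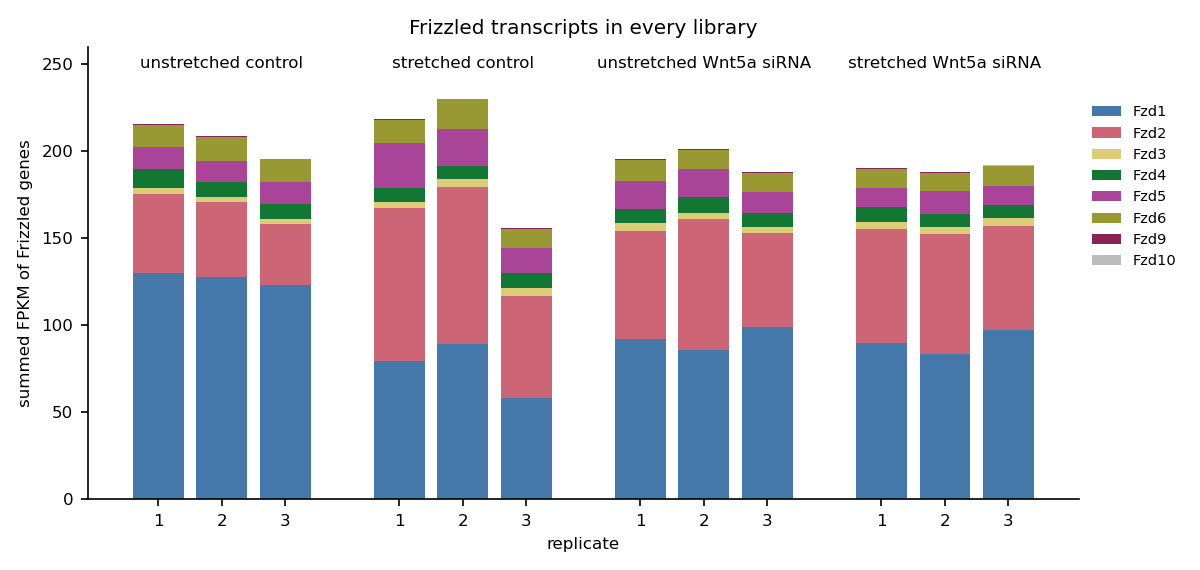
Summed FPKM of the Frizzled genes with values (vertical axis, from 0) in each of the 12 libraries, split by gene. Fzd7 had no values and is left out, and Fzd8, listed at 0, has no visible part. Fzd2 makes up 18.1% to 21.2% of the bar in the unstretched control and 37.7% to 40.3% in the stretched control, and Fzd1 the reverse, 60.3% to 62.8% and 36.4% to 38.6%.

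Among the effectors, Vangl2 was higher with the Wnt5a siRNA. Its levels in control cells were 1.10, 1.68 and 1.58 FPKM unstretched and 0.923, 0.872 and 1.48 FPKM stretched. With the Wnt5a siRNA it was at 2.29, 2.26 and 2.12 FPKM unstretched and 1.95, 1.83 and 2.06 FPKM stretched. All 6 Wnt5a siRNA libraries exceeded all 6 control siRNA libraries. The siRNA raised Vangl2 by 0.51 ± 0.14 in stretched cells (adjusted p = 0.0206) and by 0.40 ± 0.14 in unstretched cells (adjusted p = 0.0477). Stretch gave -0.23 ± 0.14 in control cells (adjusted p = 0.1737) and -0.13 ± 0.14 with the Wnt5a siRNA (adjusted p = 0.5735), where all 3 stretched libraries were below the unstretched ones. The interaction was 0.10 ± 0.20 (95% interval -0.32 to 0.53, adjusted p = 0.7326). Between the groups that differed in both, the stretched control was lower than the unstretched Wnt5a siRNA by a log2 change of -0.64 ± 0.14 (adjusted p = 0.0033).

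These calls on Vangl2 were near the threshold, at a level where the smallest possible fragment numbers were 19 to 55 per library. In stretched cells the call was lost without stretched control 1 (adjusted p = 0.0829) or 2 (0.0754), without stretched Wnt5a siRNA 1 (0.0558) or 3 (0.0736), after quantile normalization (0.0761) and with only the compared libraries in the fit (0.0663), with a lowest value of 0.0026. In unstretched cells it was lost in 10 of the 12 fits that left out a library, all but those without stretched control 2 or 3, with adjusted p up to 0.1642 without unstretched control 1, and with a pseudocount of 0.1 (0.0678). Without stretched control 3, Vangl2 was called lower with stretch in control cells (-0.36, adjusted p = 0.0345). The paralog Vangl1, not a member, averaged 13.2 ± 0.715 FPKM (SD, n = 3) unstretched and 11.5 ± 0.935 stretched with the control siRNA, and 13.8 ± 1.10 and 11.6 ± 0.502 FPKM with the Wnt5a siRNA.

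Daam1 was highest in the unstretched control, at 24.9, 22.6 and 24.6 FPKM. The stretched control held 22.4, 21.0 and 15.2 FPKM, the unstretched Wnt5a siRNA 18.3, 17.1 and 18.2 FPKM and the stretched Wnt5a siRNA 19.4, 16.0 and 16.9 FPKM. The 9 other libraries all lay below the unstretched control, though stretched control 1 did so by little. The siRNA lowered Daam1 in unstretched cells, by a log2 change of -0.41 ± 0.12 (adjusted p = 0.0246), and the stretched Wnt5a siRNA was below the unstretched control by -0.44 ± 0.12 (adjusted p = 0.01). Stretch in control cells gave -0.30 ± 0.12 with an adjusted p of 0.0498, just under the threshold. In stretched cells the siRNA gave -0.14 ± 0.12 (adjusted p = 0.3995), and stretch with the Wnt5a siRNA -0.035 ± 0.12 (adjusted p = 0.8796). The interaction was 0.27 ± 0.17 (adjusted p = 0.2752), not called.

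The stretch call on Daam1 was not stable. It was lost in 10 of the 12 fits that left out a library, all but those without stretched control 1 or 2, and it was -0.14 (adjusted p = 0.174) without stretched control 3. Without that library the siRNA effect in stretched cells was called (-0.30, adjusted p = 0.0129). It was also lost with a pseudocount of 0.1 (0.0509), no filter (0.0714), median ratio scaling (0.0539), no trend (0.0589) and only the compared libraries (0.11), and over alternatives it ran from 0.0017 to 0.174. The siRNA call in unstretched cells was lost without unstretched control 1 (0.0697) or 3 (0.0769) and without unstretched Wnt5a siRNA 1 (0.0589) or 2 (0.0792).

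Over the comparisons, 4 of the 7 tested members were called for stretch with the control siRNA, Ror1 and Fzd2 higher and Wnt5a and Daam1 lower, where 54.3% of all tested genes were called, 27.5% higher and 26.8% lower. The libraries of 5 members did not overlap there, against 58% of all genes. For the siRNA without stretch 5 were called (background 28.5%, 14.6% higher and 13.9% lower), Ror2, Fzd2 and Vangl2 higher and Wnt5a and Daam1 lower, the same 5 not overlapping (background 49.4%). For the siRNA with stretch 2 were called, Vangl2 higher and Ror1 lower (background 27.3%, 13.2% higher and 14.2% lower). These also were the 2 not overlapping (background 37.6%). Without stretched control 3, 4 were called. Shares of all genes are not given here for fits that left out a library, so counts from those fits have no background. For stretch with the Wnt5a siRNA limma called 0 (background 16%, 8.44% higher and 7.59% lower), with 0 at an unadjusted p under 0.05, and 1 did not overlap (background 40.7%). The interaction was called for 2, Wnt5a and Fzd2 (background 23.8%, 11.7% higher and 12.1% lower), and 3 had an unadjusted p under 0.05.

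The first and second of these comparisons share the unstretched control libraries, so their calls on Wnt5a, Fzd2 and Daam1 are not separate evidence. Set side by side, stretch and the siRNA without stretch gave -0.68 and -0.87 for Wnt5a, 0.90 and 0.61 for Fzd2, and -0.30 and -0.41 for Daam1. The values for Ror1 were 0.57 and -0.18 and for Vangl2 -0.23 and 0.40. Against the same libraries, cells with both stretch and the Wnt5a siRNA were called for 4 members (background 46.1%, 22.9% higher and 23.2% lower), with -0.85 ± 0.14 for Wnt5a (adjusted p = 4.4e-04) and 0.64 ± 0.16 for Fzd2 (adjusted p = 0.0058) beside the values for Ror2 and Daam1 above. The stretched control differed from the unstretched Wnt5a siRNA in 2 members, Ror1 and Vangl2 (background 45.1%, 22.7% higher and 22.3% lower).

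**Figure D3:**
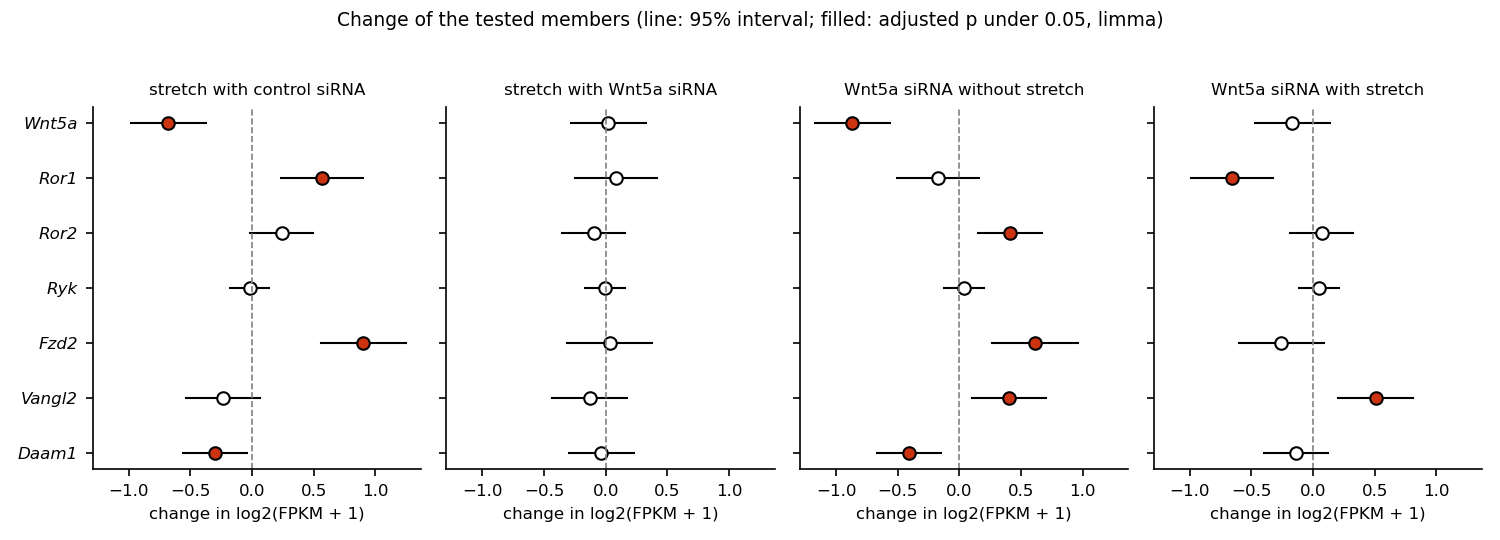
Change in log2(FPKM + 1) of the 7 tested members in the 4 pairwise comparisons (horizontal axis), with 95% intervals; filled points have an adjusted p under 0.05 by limma. Stretch moves Wnt5a, Ror1, Fzd2 and Daam1 past the threshold with the control siRNA. None passes it with the Wnt5a siRNA, where the changes lie between -0.13 and 0.084. The interaction in limma was called for Wnt5a and Fzd2, and not for Ror1 (adjusted p = 0.1219) or Daam1 (adjusted p = 0.2752).

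Library totals matter for the direction of small changes. Setting all libraries to the same summed level moved the median change of all genes from 0.011 to -0.19 for stretch with the control siRNA, from 0.0021 to 0.10 for the siRNA with stretch and from -0.0073 to -0.12 for stretch with the Wnt5a siRNA. On that scale Ror1 was not called for stretch with the control siRNA (0.36, adjusted p = 0.0518), and Wnt5a (-0.88), Fzd2 (0.68) and Daam1 (-0.52) still were. Calls on all genes there split into 1451 higher and 4493 lower, against 2889 and 2822.

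Cell type markers also moved in these comparisons, and their part in the members' changes was not tested. Of 10 tested fibroblast markers, 8 were higher and 0 lower for stretch with the control siRNA (27.5% and 26.8% of all tested genes). For the siRNA with stretch 6 were higher and 0 lower (all genes 13.2% and 14.2%), and without stretch 4 and 1 (14.6% and 13.9%). Stretch with the Wnt5a siRNA gave 8 and 0 (8.44% and 7.59%). Of 11 cardiomyocyte markers, 3 were higher and 4 lower for stretch with the control siRNA, and 0 were higher and 4, 4 and 3 lower in the other 3 comparisons. Of 8 smooth muscle and pericyte markers, 2 were higher and 2 lower, 0 and 5, 2 and 0, and 1 and 4, and of 7 macrophage markers 5 and 0, 0 and 1, 0 and 4, and 7 and 0. Of 6 endothelial markers 1, 1, 0 and 4 were higher and 0 lower in any of the 4, and their summed FPKM was 7.20 to 65.1 over the libraries. Without stretched control 3 the cardiomyocyte counts were 4 higher and 4 lower for stretch with the control siRNA, and 0 higher and 9, 8 and 5 lower in the other 3. Fibroblast markers were then 8, 7, 6 and 10 higher, endothelial markers 0, 2, 0 and 5 higher with 1 lower for stretch with the control siRNA, and smooth muscle and pericyte markers 3 and 2, 1 and 5, 3 and 0, and 2 and 6. The macrophage counts were then 4 and 0, 1 and 0, 0 and 6, and 7 and 0. No shares of all genes are given for the fit without that library. With equal library totals, stretch with the control siRNA gave 1 higher and 6 lower cardiomyocyte, 5 and 0 fibroblast, 2 and 0 macrophage, 1 and 2 smooth muscle and pericyte, and 0 and 1 endothelial markers, and 3 endothelial markers were higher for the siRNA with stretch. On that scale 1451 of all 10518 tested genes were higher and 4493 lower for stretch with the control siRNA, and 2187 and 811 for the siRNA with stretch.

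The other genes of the pathway gave the setting for these changes. Of 15 other Wnt genes with values, 2 passed the filter, Wnt4 and Wnt9a. Wnt4 averaged 0.716 ± 0.191 FPKM (SD, n = 3) in the unstretched control, 1.82 ± 0.656 in the unstretched Wnt5a siRNA, 0.325 ± 0.0626 in the stretched control and 0.788 ± 0.216 in the stretched Wnt5a siRNA. It rose with the siRNA without stretch (0.69 ± 0.18, adjusted p = 0.0138) and fell with stretch in Wnt5a siRNA cells (-0.63 ± 0.18, adjusted p = 0.0317), with 2 to 21 fragments per library as the smallest possible numbers. Wls, which carries Wnts to the cell surface, rose with stretch in control cells (0.41 ± 0.059, adjusted p = 1.1e-04) and with the siRNA without stretch (0.42 ± 0.059, adjusted p = 8.7e-04). Porcn, which attaches the lipid that Wnts need, fell with stretch with either siRNA (-0.50 ± 0.097, adjusted p = 8.9e-04, with the control, and -0.35 ± 0.097, adjusted p = 0.0284, with the Wnt5a siRNA).

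Of 8 tested Frizzled receptors and noncanonical co-receptors outside the set, 3 rose and 2 fell with stretch in control cells, with a median of 0.18. Of all tested genes 27.5% rose and 26.8% fell there. Beside Fzd1, the co-receptor Ptk7 (0.49 ± 0.096, adjusted p = 0.001) and Fzd5 (0.65 ± 0.17, adjusted p = 0.0067) were called. For the siRNA with stretch 0 rose and 2 fell (median -0.16), where 13.2% of all tested genes rose and 14.2% fell. These 2 were Fzd5 (-0.73 ± 0.17, adjusted p = 0.0102) and Mcam (-0.52 ± 0.14, adjusted p = 0.0184), a surface protein that binds Wnt5a. Without stretched control 3, 4 fell, and no share of all genes is given for that fit. In unstretched cells the siRNA raised Ptk7 (0.60 ± 0.096, adjusted p = 0.0014) and Mcam (0.43 ± 0.14, adjusted p = 0.0371) and lowered Fzd1 (-0.46 ± 0.12, adjusted p = 0.0159).

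The 14 tested planar polarity components went both ways, with 4 higher and 3 lower for stretch in control cells (median -0.13), 4 and 2 for the siRNA with stretch (median 0.10) and 2 and 2 without it (median 0.022). The shares of all tested genes in the same order were 27.5% and 26.8%, 13.2% and 14.2%, and 14.6% and 13.9%. Stretch lowered Ankrd6, the Diversin gene (-1.28 ± 0.12, adjusted p = 6.0e-06), and Invs, the inversin gene (-1.19 ± 0.13, adjusted p = 1.6e-05), and raised the cadherin Dchs1 (0.78 ± 0.092, adjusted p = 2.6e-05). With the Wnt5a siRNA in stretched cells, Prickle1, a partner of Vangl2, fell (-0.45 ± 0.074, adjusted p = 0.0026) and Dchs1 rose (0.43 ± 0.092, adjusted p = 0.0072). With equal library totals the stretch counts in control cells were 1 higher and 8 lower, where 1451 of all 10518 tested genes were higher and 4493 lower.

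The calcium arm, with 19 tested genes, had 4 higher and 5 lower for stretch in control cells (median 0.0036). The phospholipase gene Plcb4 (-0.75 ± 0.064, adjusted p = 3.9e-06) and the kinase gene Nlk (-0.52 ± 0.089, adjusted p = 3.5e-04) fell, and the calmodulin-dependent kinase gene Camk2b rose (0.94 ± 0.14, adjusted p = 1.5e-04). The siRNA with stretch lowered 2 and raised 0 (median 0.0044), Prkcd (-0.40 ± 0.095, adjusted p = 0.0109) and Nfatc2 (-0.65 ± 0.17, adjusted p = 0.0157), a protein kinase C and a calcium-regulated transcription factor, and without stretched control 3 the counts were 4 and 4. In unstretched cells the siRNA raised 2 and lowered 3 (median 0.079, 4 and 4 without stretched control 3), with Camk2b higher (1.27 ± 0.14, adjusted p = 3.5e-04) and Plcb4 (-0.43 ± 0.064, adjusted p = 0.0011) and Nlk (-0.37 ± 0.089, adjusted p = 0.01) lower. With equal library totals the stretch counts in control cells were 2 higher and 9 lower, where 1451 of all 10518 tested genes were higher and 4493 lower. No share of all genes is given for the fits without stretched control 3.

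**Figure D4:**
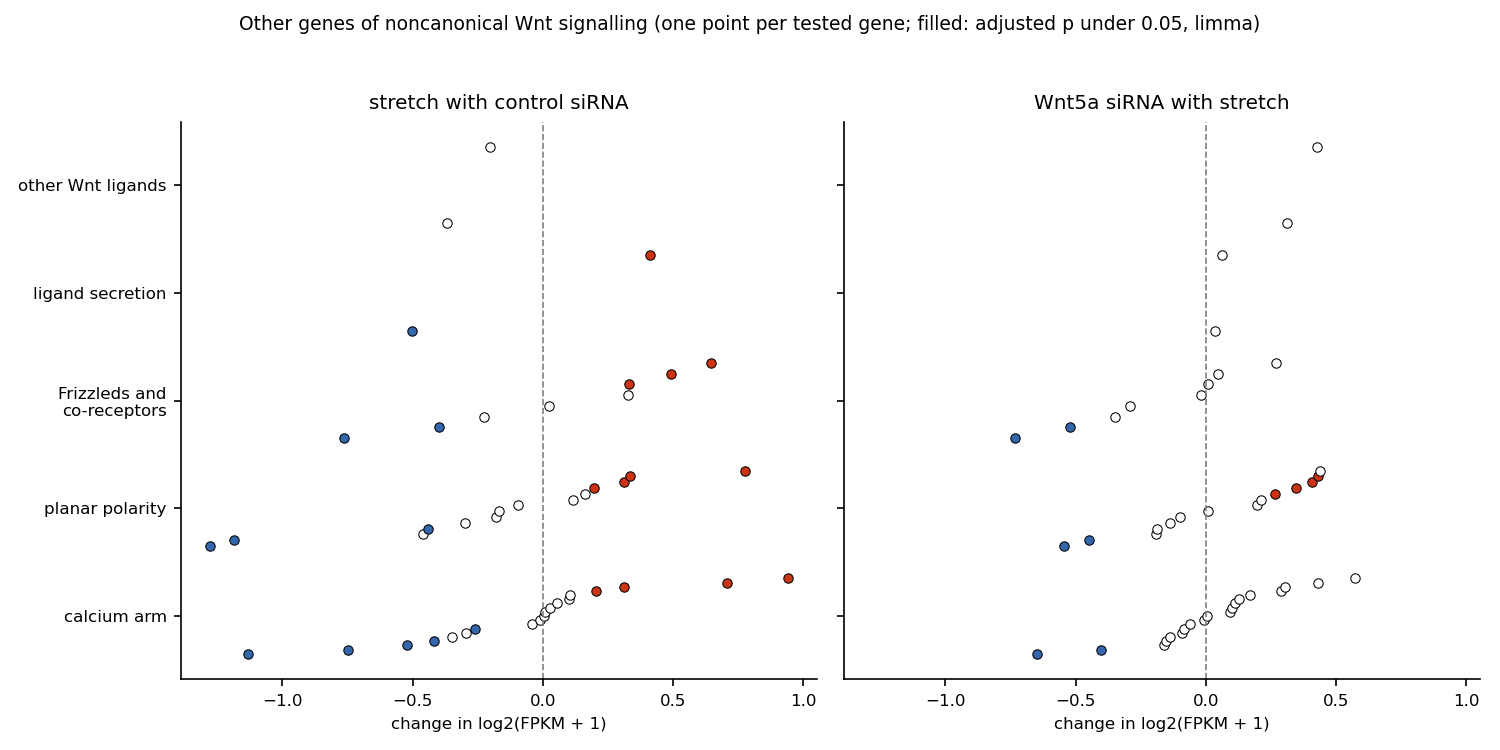
Change in log2(FPKM + 1) of each tested gene of 5 lists of other noncanonical Wnt genes (horizontal axis), for stretch with the control siRNA and for the Wnt5a siRNA with stretch; filled points are called by limma, red higher and blue lower. Among the 14 planar polarity genes, 4 points are red and 3 blue in the left panel, with Ankrd6 at -1.28 the lowest, and 4 are red and 2 blue in the right. Of all tested genes 27.5% were called higher and 26.8% lower in the left comparison, and 13.2% and 14.2% in the right.

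The genes whose profile over the 12 libraries was nearest to that of Wnt5a, by the root mean square difference in log2(FPKM + 1) after subtracting the mean of the unstretched control, were Slc46a3 (0.15), Pde3a (0.16), Cecr2 (0.16), Cidea (0.19) and Amigo1 (0.20). Pde3a, which encodes a phosphodiesterase of heart muscle, averaged 37.3 FPKM in unstretched controls, 20.2 FPKM in stretched controls, and 23.4 (unstretched) and 20.2 FPKM (stretched) with the Wnt5a siRNA. Nearest to Ror2 were Wdr13 (0.094), Ung (0.10), Dock6 (0.11), Pgm1 (0.11) and Wfs1 (0.12). These are descriptions of likeness over libraries that share groups.

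The windows of 250 bases upstream of the 8 members with an entry in the RefSeq table were searched on both strands. Fzd7 was among these 8, while Fzd2 and Wnt5b had no window and were not searched. The motifs were GGAATG, that of the TEAD factors with which YAP binds DNA, and TGANTCA, that of AP-1. Each motif was in 0 of the 8 windows, against 12.1% and 6.34% of all 33469 rat windows, which says only that these letters are not in these stretches. Apart from Ror1 with 5 and Daam1 with 4, the windows of the members held 13 to 34 CG.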

How the data were processed

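RNA was measured in 12 libraries of rat cardiomyocytes, 3 per group, grouped by the treatment label. A miRNeasy kit and a TruSeq stranded mRNA kit were used, per the labels' protocols. The deposited values are the authors' FPKM, made with TopHat2 2.1.1, Bowtie2 and Cuffdiff 2.2.1 on build rn6 per the submitters' processing notes. The sources used here give no annotation, scaling between libraries or strand setting, so overlapping and antisense genes are uncertain. Summed FPKM ran from 575161 to 709021 over the libraries, while median ratio factors ran from 1.0001 to 1.0061. The deposited values thus already stood close to a median ratio scale, and scaling by median ratios is hardly a separate alternative. FPKM do not give depth, so precision rests on the spread between libraries. What 1 fragment is worth differed by up to 1.21 times between libraries (1523 low genes). Fragment numbers are the smallest whole numbers that fit a gene's values and were not tested.

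Values were transformed to log2(FPKM + 1), which understates the change of low genes, and genes reaching an FPKM of 1 in 3 or more libraries (10518) were fitted with limma 3.58.1 in R 4.3.3 (group means over all 12 libraries, eBayes with a trend, 8 residual degrees of freedom). P-values are 2-sided and adjusted by Benjamini and Hochberg over all genes of a comparison, with a threshold of 0.05. The comparisons were stretch with either siRNA, the Wnt5a siRNA with and without stretch, their interaction (stretch with the Wnt5a siRNA minus stretch with the control siRNA), and the 2 remaining pairs of groups. Single ligands were also tested with exact permutation tests (scipy 1.17.1), and figures drawn with matplotlib 3.10.9. The fit was tested on simulated data. There it recovered 67 to 71 of 100 changes of 1.5-fold in FPKM + 1 in the 4 pairwise comparisons, and 33 of 100 for the interaction. An uncalled interaction therefore does not show that the responses were equal.

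The members and lists were chosen with earlier results of these data known. Named are the members, up to 3 called genes of each pathway list with the smallest adjusted p in a comparison (or the most abundant one where none was called), and the 5 genes most like Wnt5a and Ror2. One list of the pathway is not reported here. Fzd1 and Vangl1 are also given as paralogs in family sums. Names of all 9 members were checked against RefSeq GRCr8, which was used for names and upstream windows, with no other coordinates, since the data are on rn6. Alternatives were a pseudocount of 0.1, a low-value filter at FPKM 5 or none, scaling by median ratios, quantile normalization, equal library totals (TPM scaling), no trend, only the compared libraries, calls of at least 1.5-fold, the replicate number as a block, and leaving out each library. Deviations from the group means correlated at 0.184, 0.242 and 0.143 between same-numbered unstretched and stretched Wnt5a siRNA libraries, so the numbers were taken as pairs there. In other comparisons at least 1 of the 3 correlations was under 0.1.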

Additional observations from a re-analysis of the deposited data

Results flagged for a closer look

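The response to stretch differed between control siRNA and Wnt5a siRNA cells, by a test of the difference itself in limma, for 2 of 7 tested members and 11 of 45 tested genes of the pathway lists described. Of all tested genes 23.8% were called, so these shares are near the background and say nothing particular to the set or the lists. Differences are the log2 change with stretch in Wnt5a siRNA cells minus that in control siRNA cells, over 3 libraries per group, and no explanation was tested. For Wnt5a the difference was 0.70 (adjusted p = 0.0244) and for Fzd2 -0.87 (adjusted p = 0.0168).

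In the receptor list, Fzd1 had a difference of 0.73, from changes of -0.76 and -0.034 with the control and the Wnt5a siRNA. Ptk7 had -0.55 (0.49 and -0.060) and Mcam -0.95 (0.33 and -0.62). Fzd5, outside the naming rule for this comparison and chosen after its values were seen, had -0.96 (0.65 and -0.31). For Wls, which exports Wnts, it was -0.38 (0.41 and 0.030). In the planar polarity list it was 0.82 for Invs (-1.19 and -0.37), 0.75 for Ankrd6 (-1.28 and -0.53) and -0.34 for Prickle1 (0.33 and -0.0049). In the calcium arm, Plcb4 had 0.56 (-0.75 and -0.19), Camk2b -0.98 (0.94 and -0.038) and Nlk 0.37 (-0.52 and -0.15). Groups of 3 libraries are too small for a test of single outlying libraries.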

How the results depend on the processing

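Of 13 called changes of members, none turned direction in 269 alternative values, 219 kept the call and 50 lost it. Of 22 changes that were not called, 454 alternative values gave 9 calls and 21 turned directions. The cause of these moves was not tested. With equal library totals, stretch with the Wnt5a siRNA gave -0.0855 for Wnt5a, -0.0258 for Ror1 and -0.0882 for Fzd2, and after quantile normalization the interaction of Vangl2 was -0.0541. Leaving out each library gave 0.5622 to 0.8284 for the interaction of Wnt5a. For stretch with the Wnt5a siRNA it gave -0.1191 to 0.1206 for Wnt5a, -0.2246 to 0.0411 for Ror2, -0.0469 to 0.0561 for Ryk, -0.0754 to 0.1504 for Fzd2 and -0.1102 to 0.0204 for Daam1. The siRNA with stretch gave -0.0068 to 0.1495 for Ror2, and Ryk had -0.0664 to 0.0221 for stretch with the control siRNA, -0.0264 to 0.0767 for the siRNA without stretch and -0.0285 to 0.0759 for the interaction. In the fits that left out a library, members called numbered 3 to 4 for stretch with the control siRNA. They numbered 0 to 4 for the siRNA with stretch, 1 to 5 for the siRNA without stretch, and 1 to 3 for the interaction. No share of all genes is given for these fits, so whether such swings are particular to the members cannot be told. Asking for a change of at least 1.5-fold left 2, 1 and 2 members in the first 3 comparisons, and for the siRNA with stretch a filter at FPKM 5, quantile normalization and only the compared libraries each left 1. After quantile normalization 1177 of all 10518 tested genes were higher and 1153 lower for the siRNA with stretch. For the 1.5-fold limit, the filter and the compared libraries no share of all genes is given. With the replicate number as a block, the interaction of Ror1 was called (-0.48, adjusted p = 0.0347) and the siRNA effect on Vangl2 without stretch was not (0.40, adjusted p = 0.0524). The block changed no other call on a member, with 0 called for stretch with the Wnt5a siRNA, where the pairing held. Depth limits Wnt5b, Wnt11, Wnt4 and Vangl2, whose values rest on few fragments.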
